A study of Homo sapiens with 16 samples.

Results

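The solute carrier genes were followed in AsPC-1, a cell line derived from a human pancreatic adenocarcinoma, after treatment with ICG-001 and after transfection with siRNA directed at CTNNB1, which encodes β-catenin. The members were all genes of the expression table whose symbol began with SLC and a digit, apart from SLC40A1. Only probe sets annotated with a single gene counted. The symbol was that of RefSeq where the gene identifier matched, and the annotated symbol otherwise. There were 109 such genes among the 5250 genes tested. They were chosen by symbol, with earlier results of these data known. The table holds only probe sets that varied over the arrays, so which genes are members depends in part on measured values. Of these, 102 encode transporters or their close relatives, and 7 carry an SLC symbol without being a transporter: 5 antisense genes, 1 overlapping transcript gene (SLC9A3-OT1) and SLC2A4RG, a DNA-binding regulator. The 109 genes had 137 probe sets, and where a gene had several (23 genes) the brightest was used.

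ICG-001 is a compound that binds CBP, a transcriptional coactivator of β-catenin, and is used to inhibit β-catenin-dependent transcription. The drug experiment had cells in 10 µM ICG-001 or in DMSO, its vehicle, read at 6 h and at 24 h, with 3 arrays in each of the 4 groups. In a separate experiment, cells received 20 nM of a control siRNA or of a CTNNB1 siRNA with a lipid reagent, and RNA was taken at 48 h, 2 arrays for either siRNA. The labels name no altered genotype, and all 16 arrays share the same cell line and medium with fetal calf serum.

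Solute carriers are membrane proteins that move amino acids, sugars, ions, metals, nucleosides, vitamins and organic acids across the plasma membrane or into organelles, by facilitated diffusion, by exchange or by coupling to an ion gradient. Tumour cells depend on them for amino acids and glucose, and pancreatic duct cells are specialised in bicarbonate and chloride exchange. Several amino acid transporter genes belong to the amino acid response, in which the transcription factor ATF4 acts at composite C/EBP-ATF elements of its target genes when amino acids run short or the endoplasmic reticulum is stressed.

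The values are Affymetrix intensities on a linear scale. They were compared as log2(intensity + 16) after quantile normalization, so changes of genes near or below an intensity of 16 are understated, and because intensities are printed as deposited, dividing them does not give the stated change. The normalization put the median change of all genes after 24 h of ICG-001 at -0.02, whereas it was 0.09 in the deposited scaling. The mean deposited intensity was 163.7 to 178.9 on the ICG-001 arrays and 131.7 to 136.8 on the DMSO arrays. Bright genes such as SLC7A5, SLC6A20 and SLC25A13 differed more between the scalings than the median did. Their rises were smaller and their falls deeper after normalization, as given below. A change is given as log2 difference ± standard error, with p-values from limma adjusted by the Benjamini-Hochberg method over all 5250 genes, and rises and falls are reported where that value was below 0.05. The table holds a selection of probe sets that vary over the arrays, so solute carriers that varied little are outside every count, and CTNNB1 itself was not analysed here, which leaves the knockdown without a check on its target. Median intensities were 20.6 to 28.6 on the drug arrays and 12.7 to 13.05 on the siRNA arrays. Of 10 epithelial markers 4 were measured (KRT19, KRT7, CDH1 and MUC1), and their summed intensity was 2444.6 to 3339.5 on the drug arrays and 399.7 to 551.6 on the siRNA arrays. No acinar or islet marker was measured, and the measured markers of endothelial cells (PECAM1, KDR) and leukocytes (PTPRC, CD79A) summed to 38.9 at most. The fibroblast markers COL1A1 and DCN summed to 95.3 to 147.7 on the drug arrays and 77.1 to 118.7 on the siRNA arrays. Arrays of a group correlated with r between 0.9672 and 0.9886. The labels call them biological replicates without saying whether the cultures were separate, so the p-values measure the spread between these arrays only. A lower value can stand for less RNA per cell or for fewer cells that make it, and these cannot be told apart in bulk RNA.

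With ICG-001, the amino acid transporter gene SLC1A4 had the largest rise at 6 h and at 24 h, followed by SLC7A11 and SLC7A5 at 6 h and by SLC16A14 and SLC7A5 at 24 h. In the deposited scaling SLC1A4 was first at 6 h (1.81) but at 24 h SLC7A5 (1.87) and SLC16A14 (1.70) exceeded it (1.57). The largest falls were those of SLC35G1 at 6 h and of the iron importer gene SLC11A2 at 24 h. With CTNNB1 siRNA, the urea transporter gene SLC14A1 rose most and SLC35G1 fell most. At 6 h, 12 of 109 members passed the test, 4 higher and 8 lower, which is 11% of the members beside 13.8% of all genes (5.56% rose and 8.23% fell). At 24 h, 28 members passed, 15 higher and 13 lower, which is 25.7% beside 20.5% of all genes (9.22% rose and 11.3% fell). With CTNNB1 siRNA, 14 members passed, 9 higher and 5 lower, which is 12.8% beside 12% of all genes (6.19% rose and 5.83% fell). The members' shares lay near those of all genes, so the counts by themselves are not a result about solute carriers. The median change of the 109 members was 0.01 at 6 h, -0.05 at 24 h and 0.03 with CTNNB1 siRNA, beside -0.02, -0.02 and 0.01 over all genes. The deposited scaling gave 6 higher and 7 lower at 6 h (7.73% and 4.65% of all genes), 19 higher and 9 lower at 24 h (14.1% and 7.33%), and 8 higher and 2 lower with the siRNA (5.03% and 4.06%), or 12.4%, 21.4% and 9.09% in either direction.

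The members differed widely in brightness, and the brighter ones were called more often. Of the 28 members with a highest group mean intensity over 200, 11 passed the test at 6 h, 22 at 24 h and 6 with CTNNB1 siRNA. Of the 52 members under 50, 0, 2 and 4 did. How many of all genes of such brightness were called was not counted, so these counts are not a result about solute carriers. For 18 members the highest group mean was below 16, and 13 exceeded 1000. Over these 3 comparisons 37 members passed at least once and 72 never did. Arrays of the groups compared did not overlap on the normalized scale for any called member, and they also did not overlap for 20 further members at 6 h (32 in all), 16 at 24 h (44 in all) and 35 with CTNNB1 siRNA (49 in all). These are 29.4%, 40.4% and 45% of the members, beside 27.5%, 32.8% and 44.1% of all genes, of which 13.8%, 20.5% and 12% were called.

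**Figure D1:**
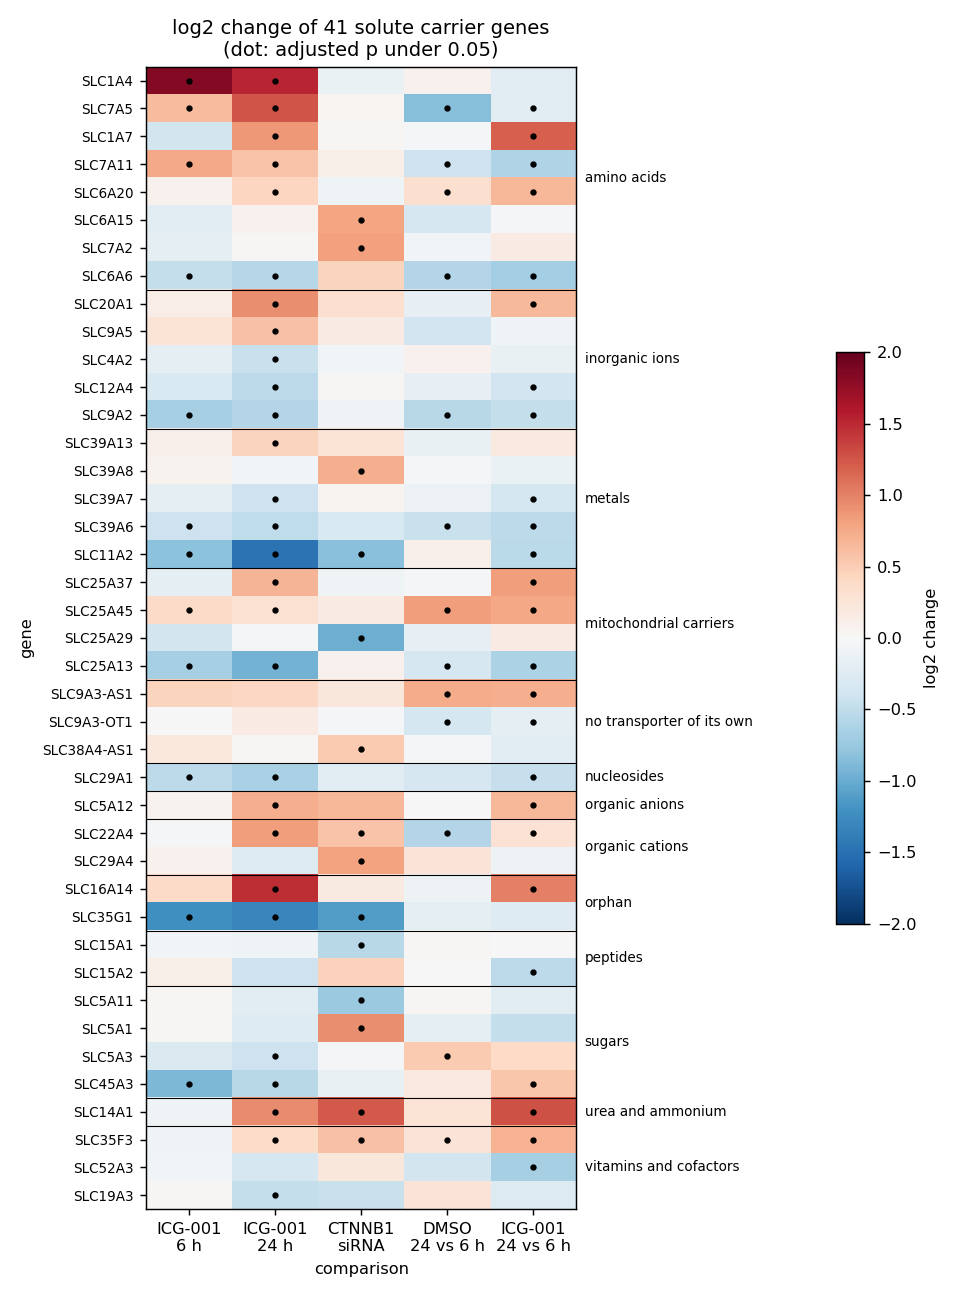
Colour gives the log2 change of the 41 solute carrier genes called in at least 1 of 5 comparisons (columns), grouped by substrate, from blue (-2, lower in the first group named) to red (2, higher), with a dot where the adjusted p was under 0.05. SLC1A4 has the deepest red in the ICG-001 columns and is near white with CTNNB1 siRNA, while SLC35G1 and SLC11A2 are blue with a dot in the first 3 columns.

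Amino acid transporters formed the second largest class, with 18 members. Of these, 3 rose and 1 fell at 6 h, 5 rose and 1 fell at 24 h, and 2 rose with CTNNB1 siRNA. Over all genes 13.8%, 20.5% and 12% were called in these comparisons, which stand beside every class count below. Each class is small, so its counts are a description. Their median change was 0.10, 0.11 and 0.05 in turn, near the medians of all genes given above. SLC1A4, an exchanger of alanine, serine, cysteine and threonine, was higher with ICG-001 at both times. Its intensity was 108, 111 and 116 on the DMSO arrays at 6 h and 460.3, 425 and 412 on the ICG-001 arrays. At 24 h it was 122, 127 and 122 with DMSO and 418, 369.9 and 416 with ICG-001. All 6 ICG-001 arrays thus lay above all 6 DMSO arrays. SLC1A4 rose by 1.83 ± 0.11 at 6 h (adjusted p = 3.3e-10) and by 1.52 ± 0.11 at 24 h (adjusted p = 1.97e-09). Its other 2 probe sets, which are dimmer, rose by 2.62 and 1.93 at 6 h and by 2.46 and 2.21 at 24 h.

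SLC7A5 encodes the transport subunit of the heteromeric exchanger that brings leucine and other large neutral amino acids into the cell. It was the brightest of the amino acid transporters, with intensities of 3319.9, 3291 and 3061 with DMSO and 7723, 7692 and 7622 with ICG-001 at 6 h. At 24 h the DMSO arrays had fallen to 1623, 1774 and 2019.9, while the ICG-001 arrays stood at 6609, 6679 and 6494. SLC7A5 rose by 0.63 ± 0.06 at 6 h (adjusted p = 4.94e-08) and by 1.26 ± 0.06 at 24 h (adjusted p = 1.98e-12). The changes in the deposited scaling were 1.25 and 1.87. The larger effect at 24 h coincided with the lower DMSO level: from 6 to 24 h SLC7A5 fell by 0.85 ± 0.06 in DMSO and by 0.22 ± 0.06 in ICG-001, the latter without a call when the intensity trend was left out of the fit.

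SLC7A11, the subunit that exchanges extracellular cystine for intracellular glutamate and so feeds glutathione synthesis, went from 500.0, 510.1 and 524 with DMSO to 1104, 1033 and 1037 with ICG-001 at 6 h. At 24 h the arrays read 381, 385 and 413 with DMSO and 669.5, 755 and 655 with ICG-001. The groups did not overlap at either time. SLC7A11 rose by 0.75 ± 0.08 at 6 h (adjusted p = 2.69e-07) and by 0.57 ± 0.08 at 24 h (adjusted p = 6.12e-06). Its antisense gene SLC7A11-AS1 was dim, with group means of 9.09 to 30.2, and had changes of 0.06 and -0.16 that did not pass the test.

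None of these 3 amino acid transporters passed the test with CTNNB1 siRNA. SLC1A4 had 80.1 and 94.0 with control siRNA and 102 and 61.2 with CTNNB1 siRNA. SLC7A5 went from 3119 and 3448 to 3383 and 3503, and SLC7A11 from 369.6 and 289 to 393 and 351. The groups overlapped for each of them, and the changes were -0.13 (95% interval -0.41 to 0.16), 0.04 (-0.10 to 0.18) and 0.12 (-0.07 to 0.31). The other 2 SLC1A4 probe sets gave 0.55 and -0.16 with the siRNA, neither called. The ICG-001 effect at 24 h exceeded the siRNA effect by 1.64 ± 0.17 for SLC1A4 (adjusted p = 9.88e-07), by 1.22 ± 0.09 for SLC7A5 (adjusted p = 5.93e-09) and by 0.45 ± 0.12 for SLC7A11 (adjusted p = 0.0113). The SLC7A11 call ended when 1 siRNA array was left out (0.35 without control siRNA replicate 1 and 0.39 without CTNNB1 siRNA replicate 2).

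**Figure D2:**
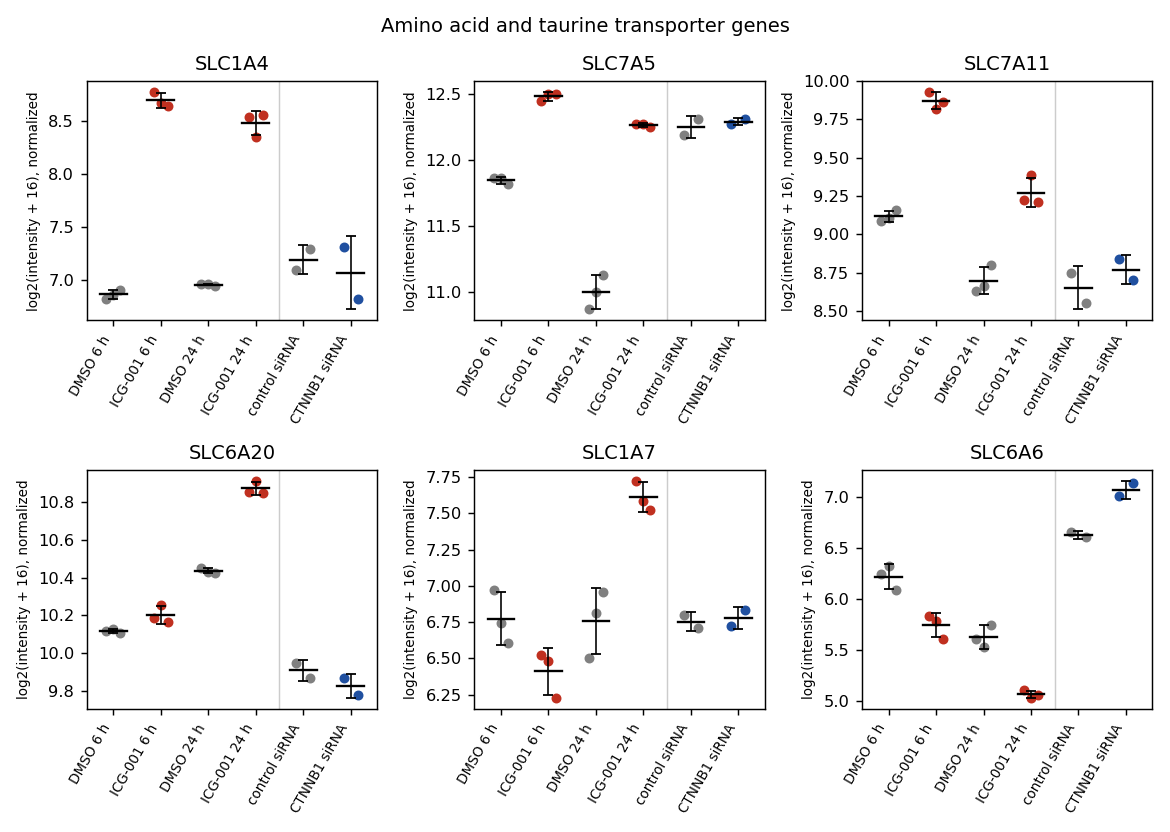
Points are single arrays on the normalized log2(intensity + 16) scale, with the group mean (wide bar) and SD, for 6 amino acid and taurine transporter genes in the 6 groups (grey DMSO or control siRNA, red ICG-001, blue CTNNB1 siRNA). The 6 ICG-001 arrays of SLC1A4, SLC7A5 and SLC7A11 lie above the DMSO arrays of the same time, SLC1A7 and SLC6A20 are separated upwards at 24 h, and SLC6A6 is lower with ICG-001 at both times.

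Start regions of the most changed members are shown because members that moved together can be compared for the element of the amino acid response. Each window runs from 250 bases before to 25 bases after a RefSeq transcript start (GRCh38.p14), 5′ to 3′ on the gene's strand, and capitals mark a match to TGATGNAA, the core of the C/EBP-ATF element, on either strand. The first is the second of 2 SLC1A4 windows (chr2:64989149-64989423, plus strand), and the other is that of SLC7A5 (chr16:87869483-87869757, minus strand).
SLC1A4: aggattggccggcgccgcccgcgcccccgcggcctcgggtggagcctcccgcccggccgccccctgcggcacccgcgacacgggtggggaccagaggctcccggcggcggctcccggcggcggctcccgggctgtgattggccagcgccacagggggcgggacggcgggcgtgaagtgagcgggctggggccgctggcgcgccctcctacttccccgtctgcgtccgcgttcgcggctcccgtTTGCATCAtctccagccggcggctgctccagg
SLC7A5: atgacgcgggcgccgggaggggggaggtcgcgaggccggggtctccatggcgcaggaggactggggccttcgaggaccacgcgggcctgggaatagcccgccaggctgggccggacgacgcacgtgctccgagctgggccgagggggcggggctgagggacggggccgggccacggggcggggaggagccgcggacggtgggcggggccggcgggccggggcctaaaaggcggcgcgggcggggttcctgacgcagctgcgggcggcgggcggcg
The SLC1A4 window held TTGCATCA, the reverse complement of a TGATGNAA match, starting 7 bases before the annotated start, and the SLC7A5 window held no match. The other SLC1A4 window, which is not shown, held no match either. Windows were listed for 87 of the 109 members, 125 windows in all, and none was listed for SLC7A11. Searched over 300 bases, to 50 bases after the start, TGATGNAA was in 6 of 125 member windows (4.8%) beside 1270 of 35116 windows of all genes (3.62%). The 6 windows belonged to SLC1A4, SLC11A1, SLC11A2, SLC23A3, SLC2A5 and SLC9A9, of which SLC1A4 rose with ICG-001 and SLC11A2 fell. The TCF/LEF core CTTTGAT was in 4 member windows (3.2%), of SLC13A1, SLC25A28 and SLC26A3, beside 2.62% of all windows, and no called member held it.

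Most measured genes of the amino acid response outside the solute carriers moved with SLC1A4, SLC7A5 and SLC7A11. Of 38 listed genes 23 were measured, of which 20 rose and 1 fell at 6 h and 19 rose and 2 fell at 24 h. Over all genes 5.56% rose and 8.23% fell at 6 h, and 9.22% rose and 11.3% fell at 24 h. Those that fell were ATF5 at both times (-0.70 ± 0.12 and -0.43 ± 0.12) and ALDH1L2 at 24 h (-0.58 ± 0.19). The median change of the 23 was 1.33 at 6 h and 0.88 at 24 h. Asparagine synthetase (ASNS) rose by 2.75 ± 0.11 and 2.61 ± 0.11, the glutathione-degrading enzyme gene CHAC1 by 5.79 ± 0.21 and 5.06 ± 0.21, and the pseudokinase gene TRIB3 by 1.88 ± 0.06 and 1.74 ± 0.06. The highest adjusted p among these 6 values was that of ASNS at 24 h (1.21e-12). With CTNNB1 siRNA, 3 of the 23 rose and 5 fell (3 and 3 in the deposited scaling), beside 6.19% and 5.83% of all genes. The median of the 23 was -0.06 there, and ASNS fell by 0.62 ± 0.14 (adjusted p = 0.00459). The list was drawn up with earlier results of these data known, so its count is a description.

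Other amino acid transporters changed later or in the other direction. SLC6A20, which carries proline and other imino acids, stood at 1281, 1226 and 1247 with DMSO and 2365, 2603 and 2407 with ICG-001 at 24 h and rose by 0.43 ± 0.05 (adjusted p = 1.46e-06; 0.96 in the deposited scaling). At 6 h its change was 0.08 and not called, whereas the deposited scaling gave 0.47 and a call, and all 3 ICG-001 arrays (1367, 1399.6 and 1319) exceeded the DMSO arrays (988, 975 and 976) there. SLC1A7, a glutamate transporter best known from the retina, stood at 86.5, 112 and 123 with DMSO and 229, 211 and 203 with ICG-001 at 24 h and rose by 0.86 ± 0.13 (adjusted p = 5.2e-05). Its 6 h change was -0.36 and did not pass the test. The taurine transporter gene SLC6A6 was the only called amino acid transporter that was lower. It went from 68.7, 71.7 and 59.3 to 46.1, 45.9 and 38.1 at 6 h and from 37.6, 33.3 and 43.3 to 20.4, 24.7 and 21.1 at 24 h, with no overlap. It fell by 0.48 ± 0.13 (adjusted p = 0.018) and by 0.57 ± 0.13 (adjusted p = 0.0036). The 6 h call was lost with -0.41 without ICG-001 6 h replicate 3, -0.47 without DMSO 6 h replicate 1 and -0.43 without DMSO 6 h replicate 2.

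With CTNNB1 siRNA, SLC6A6 was higher, at 74.5 and 84.1 against 49.8 and 46.2, a change of 0.44 ± 0.16 that was not called (adjusted p = 0.0928) but was called in the deposited scaling (0.57). The difference between its ICG-001 effect at 24 h and its siRNA effect was -1.01 ± 0.21 (adjusted p = 0.00201). SLC7A2, a transporter of arginine and other cationic amino acids, stood at 13.8 and 9.27 with control siRNA and 26.8 and 21.6 with CTNNB1 siRNA and rose by 0.82 ± 0.18 (adjusted p = 0.00472), while its dimmer probe set gave -0.08 and the mean of both 0.37, without a call. Its call was lost with 0.62 without control siRNA replicate 2 and 0.68 without CTNNB1 siRNA replicate 1. SLC6A15, a neutral amino acid transporter, rose by 0.79 ± 0.21 (adjusted p = 0.0195) from 6.02 and 4.47 to 14.9 and 14.9, all below 16. It was 0.54 and not called in the deposited scaling, and its call was lost with 0.72 without control siRNA replicate 2, 0.79 without CTNNB1 siRNA replicate 1 and 0.80 without CTNNB1 siRNA replicate 2. The remaining 10 amino acid transporters passed in none of the 3 comparisons, with changes between -0.34 (SLC38A5) and 0.37 (SLC6A19).

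Among metal transporters, with 6 members, 2 fell at 6 h, 1 rose and 3 fell at 24 h, and 1 rose and 1 fell with CTNNB1 siRNA. Of all genes, 8.23% fell at 6 h and 11.3% at 24 h. In the deposited scaling 1 metal transporter fell at 6 h, 1 rose and 2 fell at 24 h, and 2 rose and 1 fell with the siRNA. SLC11A2 imports ferrous iron across the plasma membrane and out of endosomes. Its intensity was 819, 805 and 826 with DMSO and 543, 546 and 534 with ICG-001 at 6 h. At 24 h it was 956, 888 and 839 with DMSO and 401, 432 and 364 with ICG-001. It was 1409 and 1701 with control siRNA and 951 and 929 with CTNNB1 siRNA. Every treated array lay below every control array of its comparison. SLC11A2 fell by 0.82 ± 0.07 at 6 h (adjusted p = 6.21e-08), by 1.47 ± 0.07 at 24 h (adjusted p = 1.04e-11) and by 0.83 ± 0.09 with the siRNA (adjusted p = 3.15e-06). A second SLC11A2 probe set, with a mean intensity of 21, gave -0.40, -0.08 and 0.08, none of which passed the test. With both probe sets averaged, the change was -0.78 at 24 h, still called, and -0.38 with the siRNA, not called.

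Of the zinc importers, SLC39A6 was lower with ICG-001 at both times. It had 308, 256 and 286 with DMSO and 259, 217 and 203 with ICG-001 at 6 h, and at 24 h 226, 251 and 181 with DMSO and 183, 163 and 154 with ICG-001. The deposited intensities overlapped at both times, and the normalized values did not. SLC39A6 fell by 0.42 ± 0.11 (adjusted p = 0.0143) and by 0.51 ± 0.11 (adjusted p = 0.00228). At 6 h the deposited scaling gave -0.31 and no call, and the call was also lost with -0.39 without ICG-001 6 h replicate 2, -0.36 without ICG-001 6 h replicate 3 and -0.37 without DMSO 6 h replicate 1. SLC39A7, which releases zinc from the endoplasmic reticulum, fell by 0.41 ± 0.07 at 24 h (adjusted p = 0.000261), from 743, 700.1 and 696 to 696, 696 and 539.8, but had -0.15 and no call in the deposited scaling. SLC39A13, a zinc transporter of the secretory pathway, rose by 0.45 ± 0.09 at 24 h (adjusted p = 0.000768), from 277, 327 and 319.8 to 473, 495 and 503. SLC39A8, an importer of zinc and manganese, rose by 0.73 ± 0.14 with CTNNB1 siRNA (adjusted p = 0.00155), from 12.9 and 15.97 to 23.7 and 31.8, and had 0.07 and -0.05 with ICG-001. These siRNA values are near background, and with only the siRNA arrays SLC39A8 had 0.50 and no call. The sixth member, the phagosomal metal transporter gene SLC11A1, passed in none of these comparisons.

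Mitochondrial carriers numbered 9, of which 1 rose and 1 fell at 6 h, 2 rose and 1 fell at 24 h, and 1 fell with CTNNB1 siRNA. SLC25A13, the aspartate-glutamate carrier of the malate-aspartate shuttle, had 1013, 984 and 1042 with DMSO and 854, 809 and 762 with ICG-001 at 6 h. At 24 h it had 930.2, 842 and 769 with DMSO and 509, 567 and 522 with ICG-001. It fell by 0.66 ± 0.06 (adjusted p = 4.43e-08; -0.32 in the deposited scaling) and by 0.95 ± 0.06 (adjusted p = 1.4e-10). SLC25A37, which brings iron into mitochondria, moved the other way and was called at 24 h but not at 6 h. It had 691, 622 and 634 with DMSO and 1323, 1317 and 1256 with ICG-001 at 24 h, and rose by 0.68 ± 0.06 (adjusted p = 1.08e-07). Its second probe set rose by 0.61, and its change at 6 h was -0.19. The difference between its effects at 24 h and 6 h was 0.87 ± 0.09 (adjusted p = 3.83e-06).

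SLC25A45, a carrier of the same family, rose by 0.38 ± 0.10 at 6 h (adjusted p = 0.00746) and by 0.31 ± 0.10 at 24 h (adjusted p = 0.0235; 0.58 in the deposited scaling), from 405, 443 and 402 to 648, 606 and 631 at the later time. The 6 h call was lost with 0.31 without ICG-001 6 h replicate 3 and the 24 h call with 0.28 without ICG-001 24 h replicate 1, 0.30 without ICG-001 24 h replicate 3, 0.27 without DMSO 24 h replicate 1 and 0.30 without DMSO 24 h replicate 3. SLC25A29, a carrier of basic amino acids, fell by 0.98 ± 0.26 with CTNNB1 siRNA (adjusted p = 0.019), from 12.2 and 27.1 to 4.61 and 7.30. It had -0.67 and no call in the deposited scaling, and its call was lost with -0.52 without control siRNA replicate 2 and -0.87 without CTNNB1 siRNA replicate 1. The other 5 mitochondrial carriers passed in none of the 3 comparisons.

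Transporters of inorganic ions were the largest class, with 22 members. At 6 h 1 fell, at 24 h 2 rose and 3 fell, and none passed with CTNNB1 siRNA, where their changes ranged from -0.38 to 0.42. Medians were 0, -0.04 and 0.06 in turn. SLC9A2, a sodium-proton exchanger of epithelial apical membranes, had 159.5, 161 and 133 with DMSO and 107, 91.7 and 90.7 with ICG-001 at 6 h, and at 24 h 111, 102 and 99.1 with DMSO and 73.2, 60.6 and 80.3 with ICG-001. The groups did not overlap, and SLC9A2 fell by 0.66 ± 0.12 (adjusted p = 0.000498) and by 0.58 ± 0.12 (adjusted p = 0.00127). SLC9A5, another sodium-proton exchanger, rose by 0.58 ± 0.16 at 24 h (adjusted p = 0.0136), from 74.5, 78.2 and 72.8 to 141, 113 and 126. Its call was lost with 0.49 without ICG-001 24 h replicate 1.

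SLC20A1, a sodium-phosphate cotransporter, was spread widely among the DMSO arrays at 24 h (997, 774 and 538) and narrowly among the ICG-001 arrays (1899, 1891 and 2008). It rose by 0.93 ± 0.18 (adjusted p = 0.00044). SLC12A4, a potassium-chloride cotransporter, fell by 0.52 ± 0.10 at 24 h (adjusted p = 0.000497), from 210.5, 192 and 209 to 142, 169.9 and 152, and its second probe set had -0.52 without a call. SLC4A2, the widely expressed chloride-bicarbonate exchanger, fell by 0.44 ± 0.07 at 24 h (adjusted p = 0.000115). In the deposited scaling that change was -0.17 and not called, and the deposited intensities overlapped (689, 612 and 714 with DMSO, 591, 612 and 579 with ICG-001). SLC4A5, a sodium-bicarbonate cotransporter, differed between its probe sets: the brightest had -0.10 at 6 h, while a dimmer one, with a mean intensity of 22.8, rose by 1.06 (adjusted p = 0.000376).

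The 7 sugar and polyol transporters included 1 that fell at 6 h, 2 that fell at 24 h, and 1 that rose and 1 that fell with CTNNB1 siRNA. SLC45A3, a putative sugar transporter known as a prostate epithelial protein, had 1005, 1092 and 1147 with DMSO and 757, 742 and 645 with ICG-001 at 6 h. It fell by 0.90 ± 0.10 (adjusted p = 7.54e-07; -0.59 in the deposited scaling). At 24 h the deposited intensities overlapped (1291, 1079 and 1440.4 with DMSO and 1227, 1072 and 1126 with ICG-001). Its 24 h fall of 0.55 ± 0.10 (adjusted p = 0.000218) was -0.14 and not called in that scaling. SLC5A3, the sodium-myo-inositol cotransporter induced by hypertonicity, fell by 0.42 ± 0.15 at 24 h (adjusted p = 0.0463), from 131, 112 and 98.5 to 87.8, 99.1 and 77.2, which overlap as deposited. It had -0.32 and no call in the deposited scaling, and its call was lost with -0.44 without ICG-001 24 h replicate 1, -0.34 without ICG-001 24 h replicate 3, -0.31 without DMSO 24 h replicate 1 and -0.44 without DMSO 24 h replicate 2.

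The sodium-glucose cotransporter gene SLC5A1 rose by 0.93 ± 0.27 with CTNNB1 siRNA (adjusted p = 0.0328), from 5.58 and 6.29 to 17.0 and 18.6, and was 0.62 and not called in the deposited scaling. Its call ended without any single one of the 4 siRNA arrays (0.91 without control siRNA replicate 1, 0.95 without control siRNA replicate 2, 0.97 without CTNNB1 siRNA replicate 1 and 0.89 without CTNNB1 siRNA replicate 2). SLC5A11, an inositol transporter of the same family, fell by 0.74 ± 0.21 (adjusted p = 0.0239), from 18.1 and 22.9 to 14.4 and 6.41, and was -0.48 and not called in the deposited scaling. Its call was lost with -0.60 without control siRNA replicate 2 and -0.42 without CTNNB1 siRNA replicate 2. The facilitative glucose transporter gene SLC2A3 was near background, with group means of 2.31 to 14, and its changes of -0.03, -0.10 and -0.45 did not pass the test, although the siRNA change was called without control siRNA replicate 1 (-0.73). The fructose transporter gene SLC2A5 had -0.25, 0.16 and 0.20, none called. The widely studied SLC2A1, SLC3A2, SLC1A5, SLC7A1, SLC38A2, SLC16A1, SLC16A3, SLC6A9, SLC12A2, SLC39A14 and SLC30A1 were not analysed here.

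Of 3 nucleoside and nucleobase transporters, SLC29A1 fell. It is the equilibrative transporter that brings nucleosides and nucleoside drugs such as gemcitabine into cells. It had 167, 158 and 149.7 with DMSO and 123, 117 and 99.8 with ICG-001 at 6 h, and at 24 h 108, 129 and 151 with DMSO and 94.8, 81.9 and 76.4 with ICG-001. The groups did not overlap at either time. SLC29A1 fell by 0.53 ± 0.13 (adjusted p = 0.00625) and by 0.65 ± 0.13 (adjusted p = 0.000699), and had -0.21 with CTNNB1 siRNA, which did not pass the test. SLC29A2, a second equilibrative nucleoside transporter, had 0.49 and 0.19 with ICG-001 and was not called.

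SLC14A1, the urea transporter of red cells and vascular endothelium, rose in both experiments. Its intensity at 24 h was 123, 123 and 126 with DMSO and 253, 269 and 263 with ICG-001. It was 36.8 and 16.5 with control siRNA and 86.4 and 79.1 with CTNNB1 siRNA. The treated arrays lay above the controls in both cases, although the 2 control siRNA arrays were far apart. SLC14A1 rose by 0.94 ± 0.17 at 24 h (adjusted p = 0.000239) and by 1.23 ± 0.21 with the siRNA (adjusted p = 0.000396), and its second probe set rose by 1.17 and 1.05. Without control siRNA replicate 2 the siRNA change was 0.76, still called. At 6 h its change was -0.08. The endothelial markers PECAM1 and KDR summed to 5.4 to 30.6 on the drug arrays and 9.4 to 14.6 on the siRNA arrays, near background.

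Of the 4 organic cation and carnitine transporters, 1 rose with ICG-001 at 24 h and 2 rose with CTNNB1 siRNA. SLC22A4, which carries ergothioneine and organic cations, had 487, 482 and 467 with DMSO and 1051, 1152 and 976 with ICG-001 at 24 h. It had 273 and 190.2 with control siRNA and 397 and 359 with CTNNB1 siRNA. SLC22A4 rose by 0.83 ± 0.08 (adjusted p = 1.88e-07) and by 0.57 ± 0.10 (adjusted p = 8e-04), with no overlap in either case. In DMSO alone it fell by 0.58 ± 0.08 between 6 and 24 h. SLC29A4, a monoamine transporter, rose by 0.81 ± 0.17 with the siRNA (adjusted p = 0.00353), from 8.17 and 5.41 to 17.5 and 16.9, which is near background, and stood at 170 ± 31.6 (SD, n = 3) with DMSO at 24 h in the drug experiment. With only the siRNA arrays SLC29A4 had 0.55 and no call.

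Organic anion transporters, with 9 members, had a single call in these comparisons. SLC5A12, a sodium-coupled carrier of lactate and other monocarboxylates, rose by 0.72 ± 0.18 with ICG-001 at 24 h (adjusted p = 0.0066), from 3.36, 1.53 and 4.69 to 16.4, 34.7 and 11.4, values around background. SLC13A3, a dicarboxylate transporter, was the brightest of the class, with group means of 342 to 762, and its changes of -0.13, -0.16 and -0.05 did not pass the test. The class had medians of -0.03, 0.10 and -0.08.

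The 5 vitamin transporters included SLC35F3, a putative thiamine transporter, which had 460.4, 469 and 480.3 with DMSO and 726, 739.9 and 665 with ICG-001 at 24 h. It had 126 and 120.0 with control siRNA and 204 and 228 with CTNNB1 siRNA. SLC35F3 rose by 0.36 ± 0.07 at 24 h (adjusted p = 0.000826; 0.58 in the deposited scaling) and by 0.58 ± 0.09 with the siRNA (adjusted p = 0.000134). SLC19A3, the thiamine transporter proper, fell by 0.48 ± 0.16 at 24 h (adjusted p = 0.0333), from 19.7, 13.8 and 17.6 to 9.76, 6.15 and 7.86. These values are near background, and the call was lost with -0.41 without ICG-001 24 h replicate 2, -0.48 without ICG-001 24 h replicate 3, -0.43 without DMSO 24 h replicate 1 and -0.47 without DMSO 24 h replicate 3. The peptide transporter gene SLC15A1 fell by 0.56 ± 0.18 with CTNNB1 siRNA (adjusted p = 0.0494), from 7.83 and 13.7 to 2.17 and 5.90. It had -0.41 and no call in the deposited scaling, and its call was lost with -0.34 without control siRNA replicate 2 and -0.39 without CTNNB1 siRNA replicate 1.

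Among 8 members without a firm substrate, SLC35G1 and SLC16A14 were called. SLC35G1, a multi-pass membrane protein of the drug and metabolite transporter superfamily, had 240.3, 244 and 249.8 with DMSO and 117, 107 and 102 with ICG-001 at 6 h. At 24 h it had 187, 241 and 244 with DMSO and 101, 87.8 and 95.6 with ICG-001. It had 188 and 185 with control siRNA and 65.3 and 64.2 with CTNNB1 siRNA. All 8 treated arrays lay below all 8 control arrays. SLC35G1 fell by 1.23 ± 0.11 (adjusted p = 6.93e-08), by 1.3 ± 0.11 (adjusted p = 1.81e-08) and by 1.12 ± 0.13 (adjusted p = 1.16e-05).

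SLC16A14, a member of the monocarboxylate transporter family, had 19.4, 18.0 and 13.3 with DMSO and 87.0, 92.8 and 92.0 with ICG-001 at 24 h. It rose by 1.48 ± 0.17 (adjusted p = 1.22e-06), while its 6 h change of 0.38 did not pass the test. SLC71A2 had a change of -1.21 ± 0.42 with CTNNB1 siRNA, larger than any called fall there, from 26.8 and 45.9 to 2.78 and 25.3, and was not called (adjusted p = 0.0708). It was singled out after its values were seen. The 6 neurotransmitter, amine and choline transporters and the fatty acid transporter gene SLC27A2 passed in none of the 3 comparisons. Of the 7 genes that encode no transporter, SLC38A4-AS1 rose by 0.53 ± 0.15 with CTNNB1 siRNA (adjusted p = 0.025), from 4.32 and 6.84 to 12.8 and 10.9. It had 0.37 and no call in the deposited scaling, and its call was lost with 0.43 without control siRNA replicate 1 and 0.45 without CTNNB1 siRNA replicate 1.

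The windows of SLC35G1 (chr10:93893728-93894002, plus strand) and of SLC11A2 (the most upstream of 4, chr12:51028862-51029136, minus strand) are given in the same form as those above, since these are the members that fell in all 3 comparisons.
SLC35G1: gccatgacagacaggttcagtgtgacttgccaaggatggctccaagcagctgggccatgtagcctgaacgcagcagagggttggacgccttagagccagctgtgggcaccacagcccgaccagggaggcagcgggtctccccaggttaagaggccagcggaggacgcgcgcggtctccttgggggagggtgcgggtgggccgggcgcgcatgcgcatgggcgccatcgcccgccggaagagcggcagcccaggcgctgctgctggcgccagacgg
SLC11A2: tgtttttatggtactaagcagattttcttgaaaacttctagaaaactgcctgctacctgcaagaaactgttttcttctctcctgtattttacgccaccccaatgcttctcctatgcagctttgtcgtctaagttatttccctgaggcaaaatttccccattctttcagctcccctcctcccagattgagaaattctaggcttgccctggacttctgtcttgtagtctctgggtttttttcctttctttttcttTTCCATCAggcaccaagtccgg
The SLC11A2 window held TTCCATCA, the reverse complement of a TGATGNAA match, from 3 bases after the annotated start, and neither window held CTTTGAT. It was the only SLC11A2 window with a match, and the others, which are not shown, held none.

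Members called in more than 1 of the treatment comparisons changed in the same direction in each, and they are few. Over all genes, 582 calls shared by 6 h and 24 h had the same direction and 17 the opposite. For 24 h and CTNNB1 siRNA these counts were 228 and 115, and for 6 h and CTNNB1 siRNA 173 and 102. All 12 members called at 6 h were called in the same direction at 24 h, 4 higher and 8 lower, which is 100% of the 12 and 42.9% of the 28, beside 80.4% and 54.1% over all genes. Of the 28 called at 24 h, 5 were also called with CTNNB1 siRNA, in the same direction: SLC14A1, SLC22A4 and SLC35F3 rose, and SLC11A2 and SLC35G1 fell. That is 17.9% of the 28 and 35.7% of the 14, beside 21.2% and 36.1% over all genes, so the share is close to that of all genes. SLC11A2 and SLC35G1 were the 2 members called in all 3, and the only 2 called both at 6 h and with CTNNB1 siRNA. That is 16.7% of the 12 and 14.3% of the 14, beside 23.9% and 27.4% over all genes. How many of all genes were called in all 3 was not counted. When the siRNA arrays were analysed alone, the same 5 were the calls that held with CTNNB1 siRNA, 3 higher and 2 lower, and the other 9 of the 14 were lost. Over the 109 members the changes correlated with Pearson's r of 0.63 between 6 and 24 h, 0.30 between 24 h and CTNNB1 siRNA, and 0.22 between 6 h and CTNNB1 siRNA, beside 0.64, 0.16 and 0.09 over all 5250 genes. These comparisons share no array, but the values were normalized together, and genes are not independent replicates.

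**Figure D3:**
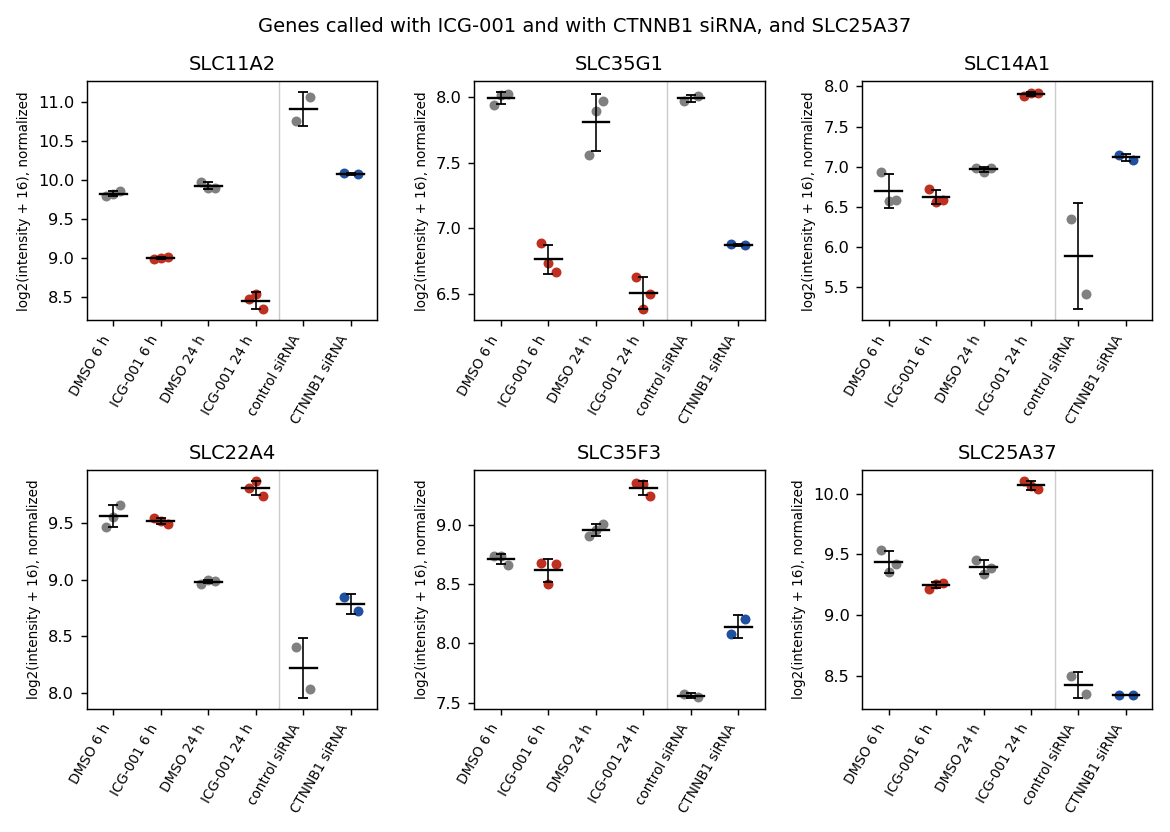
Points are single arrays on the normalized log2(intensity + 16) scale, with the group mean (wide bar) and SD, for the 5 members called with ICG-001 at 24 h and with CTNNB1 siRNA, and for SLC25A37 (grey DMSO or control siRNA, red ICG-001, blue CTNNB1 siRNA). SLC11A2 and SLC35G1 are lower in every treated group, SLC14A1, SLC22A4 and SLC35F3 are higher at 24 h and with the siRNA, and SLC25A37 is higher at 24 h while its siRNA groups differ by -0.08.

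The 6 h and 24 h arrays of the same treatment were also compared. In DMSO, 13 members passed between 6 and 24 h, 5 higher and 8 lower (11.9%, beside 8.63% of all genes, of which 4.69% rose and 3.94% fell). The largest changes were SLC25A45 at 0.84 ± 0.10 and SLC9A3-AS1 at 0.74 ± 0.15, which rose, and SLC7A5 at -0.85 ± 0.06, SLC6A6 at -0.59 ± 0.13, SLC22A4 at -0.58 ± 0.08 and SLC9A2 at -0.55 ± 0.12, which fell. SLC5A3 (0.53), SLC6A20 (0.32) and SLC35F3 (0.25) were also higher at 24 h, and SLC39A6 (-0.44), SLC7A11 (-0.42), SLC9A3-OT1 (-0.35) and SLC25A13 (-0.33) lower. Calls of SLC5A3 (0.53 without DMSO 6 h replicate 1, 0.45 without DMSO 6 h replicate 3, 0.42 without DMSO 24 h replicate 1 and 0.55 without DMSO 24 h replicate 2), SLC35F3 (0.26 without DMSO 6 h replicate 1, 0.26 without DMSO 6 h replicate 2, 0.22 without DMSO 6 h replicate 3, 0.25 without DMSO 24 h replicate 2 and 0.22 without DMSO 24 h replicate 3) and SLC39A6 (-0.39 without DMSO 6 h replicate 1, -0.43 without DMSO 6 h replicate 3 and -0.31 without DMSO 24 h replicate 3) ended when 1 array was left out.

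In ICG-001, 25 members passed between 6 and 24 h, 12 higher and 13 lower (22.9%, beside 17.4% of all genes, of which 8.5% rose and 8.88% fell). SLC14A1 (1.28 ± 0.17), SLC1A7 (1.20 ± 0.13), SLC16A14 (1.00 ± 0.17), SLC25A37 (0.83 ± 0.06) and SLC25A45 (0.77 ± 0.10) rose most. SLC6A6 (-0.68 ± 0.13), the riboflavin transporter gene SLC52A3 (-0.66 ± 0.13), SLC25A13 (-0.63 ± 0.06), SLC7A11 (-0.60 ± 0.08) and SLC11A2 (-0.54 ± 0.07) fell most. With probe sets averaged SLC11A2 had -0.23 and no call, and SLC25A37 had 0.47. SLC52A3 and the peptide transporter gene SLC15A2 (-0.53) were called in no treatment comparison. Both time comparisons give each group's own change and share arrays with the drug comparisons above.

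The effect of ICG-001 differed between 24 h and 6 h for 10 members (9.17%, beside 7.81% of all genes, 3.89% positive and 3.92% negative). The difference of effects was positive for 8: SLC1A7 (1.22 ± 0.19, adjusted p = 0.000205), SLC16A14 (1.10 ± 0.24), SLC14A1 (1.01 ± 0.24), SLC22A4 (0.87 ± 0.12), SLC25A37 (0.87 ± 0.09), SLC7A5 (0.63 ± 0.08), SLC35F3 (0.45 ± 0.10) and SLC6A20 (0.35 ± 0.07). It was negative for SLC11A2 (-0.65 ± 0.10, adjusted p = 0.000274) and SLC25A13 (-0.29 ± 0.08, adjusted p = 0.0278), whose falls were deeper at 24 h. With probe sets averaged the SLC11A2 difference was -0.16 and not called. The SLC25A13 call was lost with -0.26 without ICG-001 6 h replicate 1, -0.30 without ICG-001 6 h replicate 2, -0.27 without ICG-001 24 h replicate 1, -0.29 without ICG-001 24 h replicate 3, -0.29 without DMSO 6 h replicate 1, -0.29 without DMSO 6 h replicate 2 and -0.25 without DMSO 24 h replicate 1. SLC1A4 and SLC7A11, with differences of -0.31 ± 0.16 and -0.18 ± 0.11, were not called.

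The ICG-001 effect at 24 h differed from the CTNNB1 siRNA effect for 20 members, 9 with a higher and 11 with a lower value (18.3%, beside 15.9% of all genes, 7.16% higher and 8.74% lower). In the deposited scaling 10 were higher (9.01% of all genes) and 4 lower (5.14%), 14.2% of all genes in either direction. Higher with ICG-001, next to the 3 amino acid transporters above, were SLC16A14 (1.3 ± 0.27, adjusted p = 0.00178), SLC27A2 (1.26 ± 0.39), the vesicular glutamate transporter gene SLC17A8 (0.85 ± 0.25), SLC1A7 (0.83 ± 0.21), SLC25A37 (0.76 ± 0.10) and SLC6A20 (0.52 ± 0.08; 1.02 in the deposited scaling). SLC27A2 and SLC17A8 were called in neither comparison alone. SLC27A2 was not called in the deposited scaling (1.15) or at 0.92 without ICG-001 24 h replicate 2, 1.13 without DMSO 24 h replicate 1, 0.96 without control siRNA replicate 2, 1.24 without CTNNB1 siRNA replicate 1 and 1.27 without CTNNB1 siRNA replicate 2, and SLC17A8 was not called at 0.73 without ICG-001 24 h replicate 1, 0.82 without DMSO 24 h replicate 2, 0.76 without control siRNA replicate 2 and 0.59 without CTNNB1 siRNA replicate 1.

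Lower with ICG-001 were SLC29A4 (-1.08 ± 0.22), SLC25A13 (-1.03 ± 0.09, adjusted p = 9.09e-08), SLC6A6 (-1.01 ± 0.21) and SLC11A2 (-0.64 ± 0.12, adjusted p = 0.00045), which were called in both scalings, with -0.67 for SLC29A4 and -0.42 for SLC11A2 in the deposited one. SLC11A2 thus fell in both experiments, and further after 24 h of ICG-001 than 48 h after the siRNA. Its change at 6 h of ICG-001 was -0.82, beside -0.83 with the siRNA. Its mean intensity was 856 on the DMSO arrays and 1560 on the control siRNA arrays. With probe sets averaged its siRNA change was -0.38 and not called. The other 7 had no call in the deposited scaling: SLC5A1 (-1.19, then -0.84), SLC15A2 (-0.88, then -0.60), SLC7A2 (-0.79, then -0.42), SLC39A8 (-0.78, then -0.42), SLC12A4 (-0.55, then -0.39), SLC39A7 (-0.46, then -0.24) and SLC4A2 (-0.39, then -0.17). Leaving out 1 array also ended the calls of SLC5A1 (-1.13 without ICG-001 24 h replicate 2, -1.15 without ICG-001 24 h replicate 3, -0.90 without DMSO 24 h replicate 1, -1.17 without control siRNA replicate 1, -1.21 without control siRNA replicate 2, -1.24 without CTNNB1 siRNA replicate 1 and -1.15 without CTNNB1 siRNA replicate 2) and SLC15A2 (-0.53 without control siRNA replicate 1 and -0.57 without CTNNB1 siRNA replicate 2). For the other members called with both treatments the differences were -0.19 ± 0.17 (SLC35G1), -0.29 ± 0.26 (SLC14A1), 0.26 ± 0.13 (SLC22A4) and -0.23 ± 0.11 (SLC35F3), none called, with 95% intervals of -0.55 to 0.18, -0.85 to 0.26, -0.01 to 0.54 and -0.47 to 0.01.

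**Figure D4:**
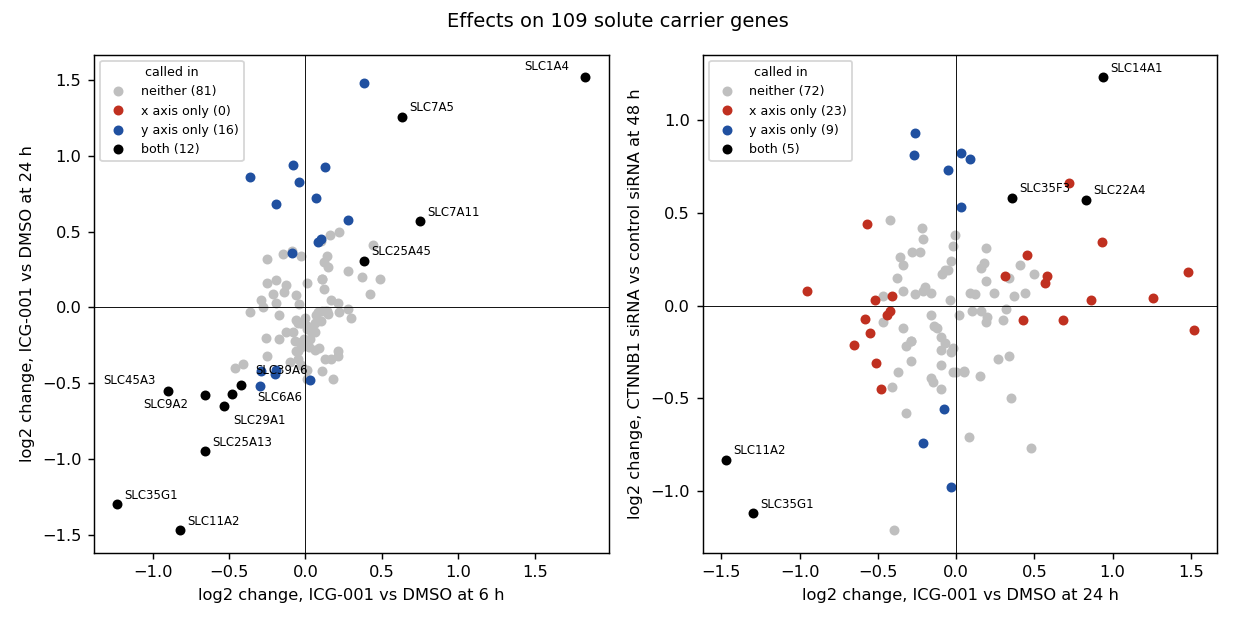
Each point is 1 of 109 solute carrier genes, placed by its log2 change with ICG-001 at 6 h against 24 h (left) and with ICG-001 at 24 h against CTNNB1 siRNA (right). Black points were called on both axes (12 on the left, 5 on the right), red on the x axis only, blue on the y axis only and grey on neither, and on every black point both changes have the same sign.

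Other transport proteins gave a mixed picture. Leaving out ABCA17P and ABCC6P1, whose symbols mark pseudogenes, 16 symbols of the families of ATP-driven transporters and pumps were measured, ABCC13 among them. Of these, 1 rose and 1 fell at 6 h, 4 rose and 0 fell at 24 h, and 3 rose and 1 fell with CTNNB1 siRNA. Over all genes 13.8%, 20.5% and 12% were called. In the deposited scaling the counts of the 16 were 2 and 0, 6 and 0, and 3 and 0. ABCA1, which exports cholesterol to apolipoproteins, rose by 1.5 ± 0.13 at 24 h (adjusted p = 1.58e-08) and by 1.51 ± 0.15 with the siRNA (adjusted p = 1.63e-06). The sterol exporter gene ABCG1 rose by 0.73 ± 0.07, 1.10 ± 0.07 and 0.72 ± 0.09. The direction of ABCC3, an exporter of organic anion conjugates, depended on the scaling at 6 h (-0.30, and 0.21 in the deposited scaling). The 2 organic anion transporter genes SLCO1A2 and SLCO1C1 passed in none of these comparisons, while the antisense gene SLCO4A1-AS1 fell by 0.76 ± 0.10 with the siRNA (adjusted p = 1.75e-05). Of 3 carbonic anhydrases, CA12 fell by 1.03 ± 0.11 and 0.98 ± 0.11 with ICG-001 and rose by 0.43 ± 0.13 with the siRNA (adjusted p = 0.041). The water and glycerol channel gene AQP3 fell by 0.50 ± 0.05 at 6 h, but had -0.02 and no call in the deposited scaling.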

How the data were processed

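Total RNA was labelled with biotin and hybridised to 16 Affymetrix arrays, per the labels' protocols. The authors deposited intensity values on a linear scale for 9554 probe sets, each with a coefficient of variation of at least 0.4 over the arrays; how the authors summarised and scaled them is not stated. GEO's platform annotation named 1 gene for 6442 probe sets (252 had several genes, 2860 none), and 6432 symbols were matched to RefSeq through gene identifiers. Of 6 more probe sets that list an SLC gene with others, 5 SLC genes are found there only, and these were left out.

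Here 16 was added to each intensity before log2, and quantile normalization was applied because array medians differed by 0.64, over the limit of 0.5. The brightest probe set per gene was kept. Using limma 3.58.1 (R 4.3.3), 1 linear model of the 6 group means covered all arrays; the prior spread followed intensity (10 residual and 7.84 prior degrees of freedom), with two-sided tests and Benjamini-Hochberg adjustment over 5250 genes. The number of arrays limits the precision. The fit was tested on simulated data. In the treatment comparisons up to 4 called members per substrate class and direction were to be named, and 5 per direction in the others; SLC6A20 at 24 h and further members of the time and difference comparisons were added, being called. Of 16 members to be named wherever measured, 4 were (SLC1A4, SLC7A5, SLC7A11, SLC2A3). Substrate classes were set for single genes where a gene had its own entry, and by family otherwise. Members of the same family can therefore be in different classes, as with SLC16A7 and SLC16A14. The class table was extended once the symbols were known. The members and lists were chosen with earlier results of these data known. Promoter windows are those of RefSeq (GRCh38.p14). Alternatives were other scalings, other added numbers, fewer genes or arrays, averaged probe sets, no trend, a replicate block and leaving out each array.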

Additional observations from a re-analysis of the deposited data

Results flagged for a closer look

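For 10 solute carrier genes the effect of ICG-001 differed between 24 h and 6 h by a test of the difference itself (limma, Benjamini-Hochberg adjusted over 5250 genes). The difference of effects, 24 h minus 6 h, was 1.22 for SLC1A7 (adjusted p = 0.000205), 1.10 for SLC16A14 (0.00498), 1.01 for SLC14A1 (0.00858), 0.87 for SLC22A4 (5.6e-05), 0.87 for SLC25A37 (3.83e-06), 0.63 for SLC7A5 (2.34e-05), 0.45 for SLC35F3 (0.00643) and 0.35 for SLC6A20 (0.00314). It was -0.65 for SLC11A2 (0.000274) and -0.29 for SLC25A13 (0.0278). Between the 2 times in DMSO alone, SLC7A5, SLC22A4 and SLC25A13 fell by 0.85, 0.58 and 0.33, and SLC6A20 and SLC35F3 rose by 0.32 and 0.25. The DMSO values of SLC1A7, SLC16A14, SLC14A1, SLC25A37 and SLC11A2 were -0.02, -0.10, 0.27, -0.04 and 0.10, none called. With 2 or 3 arrays per group, single outlying arrays were not tested.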

How the results depend on the processing

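Depth is not defined for arrays. Of the 52 members with a highest group mean under 50, 6 were called in any treatment comparison, beside 23 of the 28 over 200. The reason for this difference was not tested. Counts of members called at 6 h, at 24 h and between times in ICG-001 stayed within 1.5 times under each alternative run. With CTNNB1 siRNA, the 9 that rose became 4 with each array centred on its median and 3 with only that experiment's arrays, and the 5 that fell became 2 in both of these and in the deposited scaling. Leaving out each array gave 6 to 8 and 2 to 7, the lowest without control siRNA replicate 2. The 5 that rose in DMSO became 3 to 4 on leaving out an array (3 without DMSO 6 h replicate 1 or 3), the 2 members whose difference of effects was negative became 1 without the intensity trend, 1 with averaged probe sets and 1 to 2 on leaving out an array, and the 11 lower with ICG-001 than with the siRNA became 4 in the deposited scaling. Where no array, number of genes or number of probe sets changed, the cause was not tested.

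Among the named values of solute carrier genes, signs turned for 4, none of them called: SLC2A3 at 6 h (-0.08 to 0.01 on leaving out an array) and between times in ICG-001 (-0.02 with centring), and, with the siRNA, SLC1A4 (0.09 with averaged probe sets, -0.37 to 0.12 on leaving out an array) and SLC7A5 (-0.02 to 0.10). Of 108 such values, 15 lost their call in the deposited scaling and 15 with centring. The 108 include values that were not called to begin with, such as all those of SLC2A3, and these had no call to lose. With only the siRNA arrays, SLC39A8 (0.50) and SLC29A4 (0.55) were among the 9 calls lost, and with 64 added SLC29A4 (0.34) was lost. Without the intensity trend 7 calls were lost: SLC39A6 at 6 h (-0.42), SLC25A45 at 24 h (0.31), SLC35F3 (0.25) and SLC39A6 (-0.44) in DMSO, SLC7A5 between times in ICG-001 (-0.22), the SLC25A13 difference of effects (-0.29) and the SLC7A11 difference from the siRNA (0.45).

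Same-numbered arrays did not deviate together (correlations of -0.06 to 0.09). The labels do not say whether the numbers pair the samples, and so few arrays per group cannot settle it. With a replicate block 2 of the 108 values lost their call, SLC15A1 with the siRNA (-0.56, adjusted p = 0.0558; over its alternatives the p ran from 0.0065 to 0.447) and SLC35F3 in DMSO (0.25). The other 106, called or not, stayed on the same side.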

Other observations

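The DMSO arrays and the control siRNA arrays are both untreated in the sense of their experiments, yet many solute carrier genes differed between them. Beyond 4-fold on the normalized scale were 16 members (14.7%, beside 9.71% of all genes), 9 higher with DMSO and 7 higher with control siRNA. SLC11A1 had a mean intensity of 182 on the DMSO arrays and 3.43 on the control siRNA arrays, SLC15A2 247 and 17.7, and SLC12A4 213 and 13.1. In the other direction, SLC39A7 had 727 and 2950, SLC9A3-OT1 339 and 2030, and SLC38A10 7.99 and 117. Probe sets were deposited only if they varied over the arrays. A difference between the experiments could thus itself bring a gene into the table, so these counts are not a result about solute carriers. The experiments differ in transfection and in time. Median intensities also differed, at 20.6 to 28.6 on the drug arrays and 12.7 to 13.05 on the siRNA arrays. These differences cannot be told apart here.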
